A study of Mus musculus with 6 samples.

Results

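The translation initiation factors (Eif genes) and elongation factors (Eef genes) of the mouse were followed in liver RNA with and without the homeobox transcription factor Prox1. Members were taken by symbol, as every gene whose name begins with Eif1 to Eif6 or with Eef1 or Eef2, leaving out the genes of the eIF4E-binding proteins and of the eIF2 kinases, pseudogenes and an opposite-strand transcript. This rule reads no measured value, but the set was chosen with earlier results of these data known. It gave 60 of the 29667 genes in the count table. Of these, 58 had enough reads to be tested. Eef1a2, the eEF1A form of neurons and muscle, and Eef1akmt3, a methyltransferase, stayed near 0 reads in all libraries and were not tested.

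The libraries were made from poly(A) RNA of whole liver, 3 from wild-type (WT) mice and 3 from Prox1-cKO mice. In Prox1-cKO mice, both copies of Prox1 are floxed and a Cre recombinase made in hepatocytes from an albumin promoter deletes them, while WT mice carry the floxed alleles without Cre. Prox1 was not measured by cell type in these samples. Mice were on a C57BL/6 background and were fed chow. How old the animals were, whether they were treated and at which hour the livers were taken is not given in the sources at hand. The study calls its samples biological replicates, and all p-values rest on the spread among these 6 livers.

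The WT libraries had totals of 18066205 to 19921674 reads, and those of Prox1-cKO had 19036950 to 20537091. Levels are given as CPM, the reads of a gene relative to a common library total after scaling by the trimmed mean of M values (TMM). Genotypes were tested against each other with the quasi-likelihood method of edgeR and Benjamini-Hochberg adjustment over the 14843 genes tested, a gene being called at an adjusted p under 0.05. Prox1 itself lay between 558 and 837 CPM in WT and between 172 and 212 CPM without it, which is −1.91 on the log2 scale (standard error 0.20, edgeR adjusted p = 6.05e-04), with no overlap between the groups. Marker genes of liver cell types differed too, in that 6 of 8 hepatocyte markers were called higher in Prox1-cKO, while 6 of 8 macrophage, 5 of 8 stellate cell and fibroblast, 3 of 5 bile duct, 1 of 7 sinusoidal endothelial and 7 of 8 dividing cell markers were called lower. Summed over their lists, hepatocyte markers took 62870 to 77790 CPM in WT against 107700 to 129000 CPM in Prox1-cKO, macrophage markers 568 to 1329 against 470 to 646 CPM, stellate cell markers 505 to 605 against 309 to 372 CPM, endothelial markers 408 to 564 against 301 to 566 CPM, bile duct markers 120 to 189 against 33.9 to 55.3 CPM, lymphocyte markers 4.57 to 11.8 against 2.73 to 4.31 CPM, and dividing cell markers 128 to 241 against 43.7 to 50.2 CPM. Most of the hepatocyte sum was Alb, at 50080 to 67300 CPM in WT and 73980 to 94060 CPM in Prox1-cKO. Alb was not called (log2 fold change 0.50, edgeR adjusted p = 0.254), although its groups did not overlap. Among the lymphocyte markers, 0 of 4 tested were called by edgeR, 4 were lower at an unadjusted p under 0.05, 2 were lower by DESeq2 and 0 by limma-trend. No marker of these lists was at 0 reads in any library. In bulk liver, fewer cells of a type and less RNA per cell cannot be told apart, and the part of cell make-up in the results on translation factors was not tested.

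Initiation in eukaryotes is carried out by a small 40S ribosomal subunit that is loaded with eIF1, eIF1A, eIF3, eIF5 and the ternary complex of eIF2, GTP and initiator tRNA. The eIF4 factors bind the cap, unwind the leader and bring this particle to the mRNA, which it scans until a start codon is recognised. eIF2 then leaves with GDP and is recharged by eIF2B, eIF5B joins the large subunit, and eEF1A, its exchange factors and eEF2 drive the elongation cycle, with eIF5A helping at difficult peptide bonds. Hepatocytes export plasma proteins in large amounts, and the supply of their translation machinery is known to follow nutrients and growth signals.

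Eif1, the factor that keeps the scanning ribosome from settling on a wrong start codon, rose most among the 60 genes. 10 of the 58 tested factors were called higher in Prox1-cKO livers (17.2%) and 1 was called lower (1.72%). Over all genes tested, 14.1% were called higher and 20.2% lower. With TMM scaling the share of factors called higher was thus near the background and the share called lower was below it. The higher genes were Eif1, Eif5 and Eif1a of start codon selection, Eif4b, Eif4a2 and Eif4g2 of the cap machinery, Eif3j1, Eif3e and Eif3m of eIF3, and Eif2s3x of eIF2. The lower gene was Eef2k, the kinase that inhibits eEF2.

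With TMM scaling the log2 fold change was above 0 for 44 of the 58 factors, with a median of 0.22 beside −0.015 over all genes tested, but with library totals alone it was above 0 for only 12 of them, with a median of −0.19 beside −0.43. Library totals move all genes by a median of −0.41 on the log2 scale, since the TMM factors lay between 1.09 and 1.20 for WT and between 0.842 and 0.893 for Prox1-cKO. With library totals 1 of the 58 factors was called higher and 8 lower, beside 725 and 6060 of 14843 genes. With a correction for the length and GC content of genes 34 of the 58 were called higher and 1 lower. Beside them stood 4079 and 2388 of 14833 genes, so with this correction the share of factors called higher was above that of all genes. The gap between the median of the factors and the median of all genes was 0.24 under both scalings, and it lay between 0.17 and 0.37 in the 14 alternative fits. In 25 factors all Prox1-cKO libraries lay above all WT libraries and in 3 all lay below, where 23.3% and 26.6% of all genes did so.

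**Figure D1:**
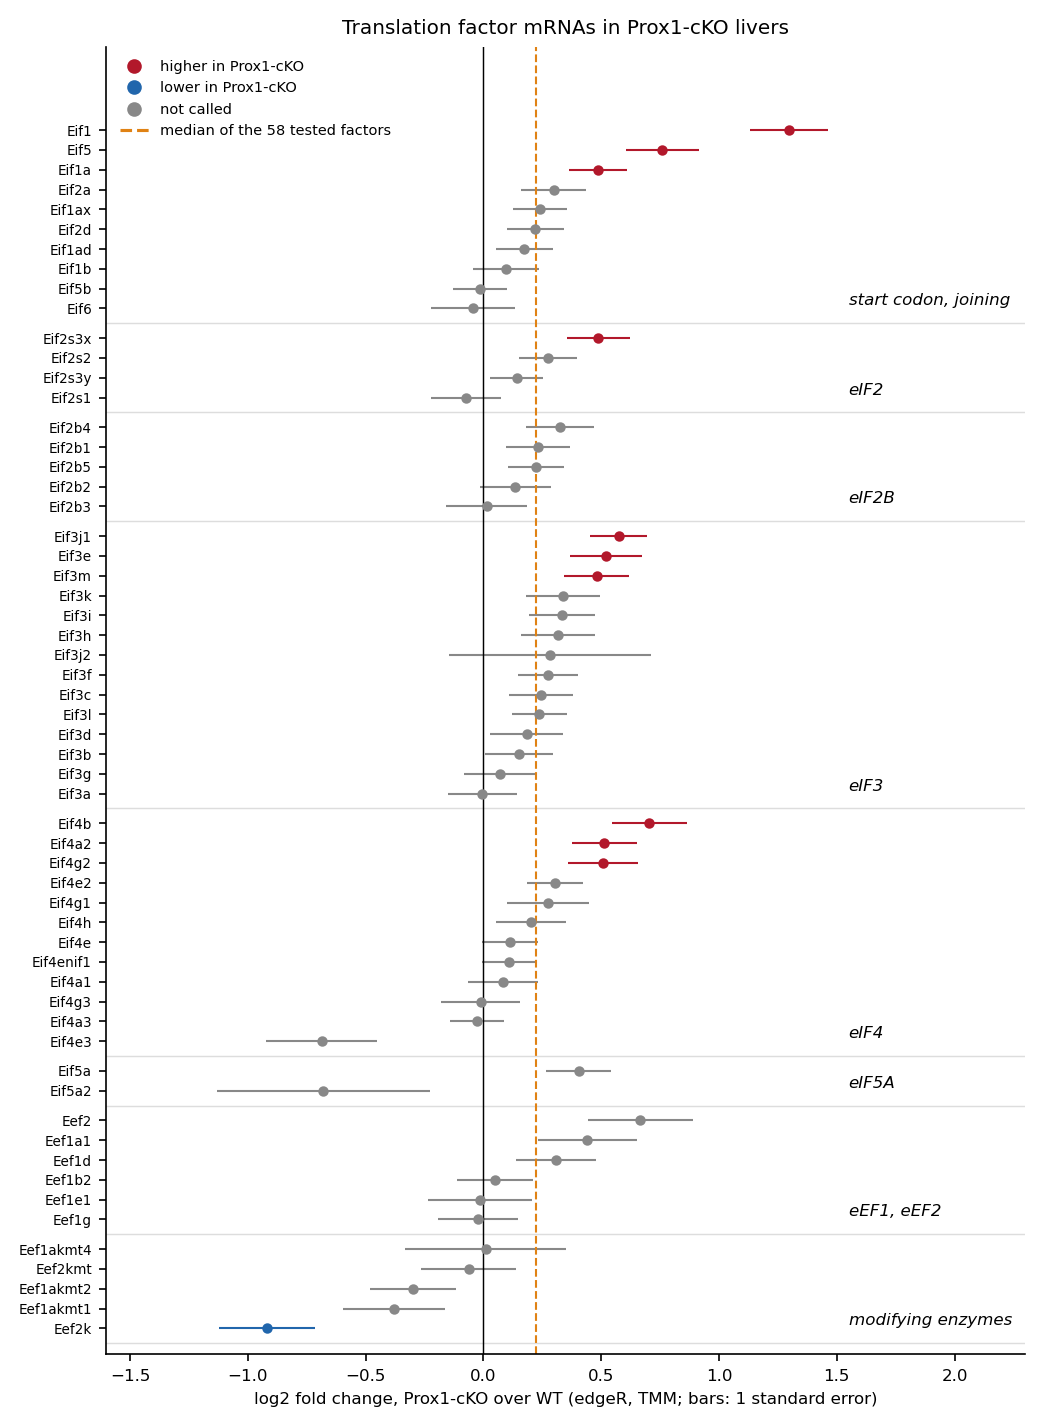
The plot of fold changes gives, for each of the 58 tested factors, the log2 fold change of Prox1-cKO over WT (x axis, TMM scaling) with 1 standard error, grouped by role and ordered within each role. Red points are called higher (10), the blue point is called lower (Eef2k), grey points are not called and the dashed line is the median of 0.22, which is −0.19 with library totals alone.

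Prox1-cKO replicate 3 and WT replicate 3 stood apart for these genes. Prox1-cKO replicate 3 was the highest of the 6 libraries for 37 of the 58 factors, where it was the highest for 20.7% of all genes tested, and WT replicate 3 was the lowest for 27 of them, where it was the lowest for 16.4% of all genes. Summed CPM of the 60 genes was 9456, 9782 and 9857 in WT and 12410, 11940 and 14910 in Prox1-cKO. The groups did not overlap, and the Prox1-cKO values spread more widely than the WT values, with replicate 3 on top. Without Prox1-cKO replicate 3, 5 factors remained called higher (Eif1, Eif5, Eif1a, Eif4b and Eif3j1) and Eef2k remained called lower, and the median of the tested factors was 0.14. The same 5 factors remained called higher without Prox1-cKO replicate 1, so this drop in calls was not particular to replicate 3. Without WT replicate 3, 12 were called higher and 2 lower.

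**Figure D2:**
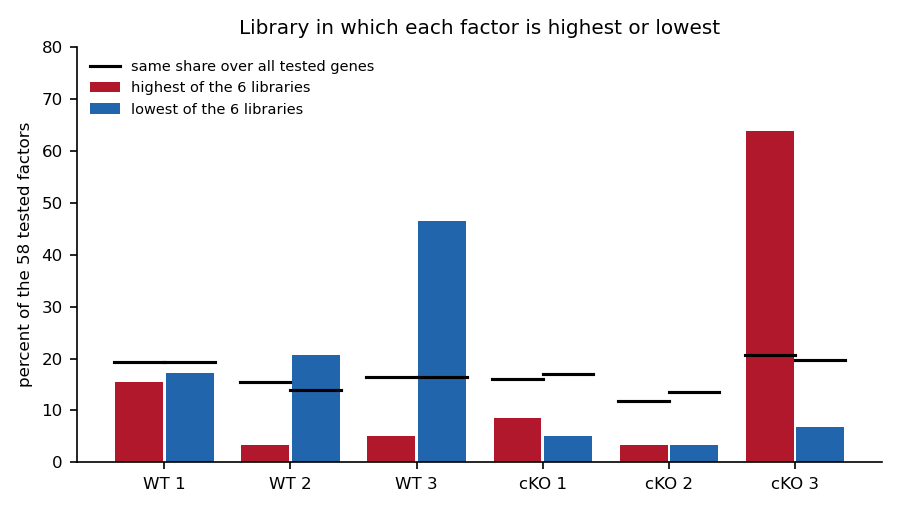
The bars give the percentage of the 58 tested factors for which each library held the highest (red) or the lowest (blue) CPM of all 6, and the black lines give the same percentages over all genes tested. Prox1-cKO replicate 3 was highest for 37 factors and WT replicate 3 was lowest for 27.

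Of the 10 genes that act on start codon selection and subunit joining, 3 were called higher and 0 lower by edgeR, beside 14.1% and 20.2% of all genes. At an unadjusted p under 0.05, by DESeq2 and by limma-trend, 0 were lower. In 5 of the 10 all Prox1-cKO libraries lay above all WT libraries, where 23.3% of all genes did so. The same shares of all genes stand beside the counts of each role group below, and these groups are small. eIF1 and eIF1A hold the scanning ribosome open, and eIF5 triggers GTP hydrolysis on eIF2 once a start codon is paired. The reading of a start codon depends on the bases beside it, a purine at the third base before the ATG and a G right after it being favourable in vertebrates, and the Eif1 mRNA of many eukaryotes is known for an unfavourable context. The start codons of Eif1, Eif1b and Eif5 and of a few abundant factors are therefore shown from GENCODE M21 (GRCm38). The ATG and both of these context bases are in capitals. Eif1 starts at chr11:100320130-100320132 (plus strand), Eif1b at chr9:120492811-120492813 (plus), Eif5 at chr12:111539616-111539618 (plus), Eif4b at chr15:102073951-102073953 (plus), Eef1a1 at chr9:78480652-78480654 (minus) and Eef2 at chr10:81176727-81176729 (plus).
Eif1: tcgtatCgtATGTccg
Eif1b: tagtgtCgcATGTcca
Eif5: taagccAaaATGTctg
Eif4b: tctcccAacATGGcgg
Eef1a1: aaagcaAaaATGGgaa
Eef2: tccgccAccATGGtga

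Eif1 and its paralog Eif1b have neither favourable base, as in 7.5% of 20769 mouse genes with an annotated ATG, while Eif5 has the purine and lacks the G. Eif4b, Eef1a1 and Eef2 have both, as do 41.2% of genes. They are examples only, since other abundant factors, Eif4g1, Eif4a2 and Eif3a, have the purine and lack the G. Over the 59 factors with an annotated ATG, 31 had both bases, 52 had the purine and 4 had neither. These letters are a description of the reference sequence, and no use of a start codon was measured here.

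Eif1 (chr11:100319885-100322096, plus strand) was at 95.9, 114 and 127 CPM in the WT livers and at 238, 286 and 303 CPM in the Prox1-cKO livers. Every Prox1-cKO value was far above every WT value. The means were 112 ± 15.4 and 275 ± 33.9 CPM (SD, n = 3 each), a 2.46-fold difference with a log2 fold change of 1.30 (standard error 0.17, edgeR adjusted p = 0.00137). Eif1 was the only factor past a fold of 2, and it was called in each of the 14 alternative fits, with log2 fold changes from 0.89 with library totals to 1.49 with the correction for length and GC content.

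Eif1b, which encodes a protein closely similar to eIF1, was at 10.8, 10.2 and 11.0 CPM in WT and at 10.7, 10.8 and 12.7 CPM in Prox1-cKO. Here the groups overlapped, and the log2 fold change was 0.096 (standard error 0.14, edgeR adjusted p = 0.633), which became −0.31 with library totals. The ratio of Eif1b to Eif1 reads within a library, which needs no scaling, was 0.113, 0.0896 and 0.0867 in WT and 0.0450, 0.0378 and 0.0418 in Prox1-cKO. The ratio fell outside the WT range in each Prox1-cKO liver, so the paralogs parted in every sample. Processed pseudogenes of Eif1 had at most 14 reads in a library.

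Eif5 (chr12:111538016-111546752, plus strand) was at 173, 189 and 226 CPM in WT and at 324, 322 and 350 CPM in Prox1-cKO. The Prox1-cKO values lay close together and well above the highest WT value. The log2 fold change was 0.76 (standard error 0.15, edgeR adjusted p = 0.00812). A call was made in 13 of the 14 alternatives, the exception being library totals, with a log2 fold change of 0.35 (adjusted p = 0.0681). A snoRNA gene, Snora28, shares 127 bases with the exons of Eif5.

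Eif1 and Eif5 are known to act against each other on start codon stringency, eIF1 raising it and eIF5 lowering it. There were 0.554, 0.601 and 0.560 Eif1 reads per Eif5 read in WT and 0.734, 0.887 and 0.865 in Prox1-cKO. Both mRNAs rose, and Eif1 rose further, with no overlap of the ratio between the groups and a mean ratio 1.45 times that of WT.

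Eif1a, which encodes a form of eIF1A (chr18:46597701-46616456), was at 58.8, 58.1 and 52.2 CPM in WT and at 78.7, 71.6 and 86.7 CPM in Prox1-cKO. The lowest Prox1-cKO value lay above the highest WT value. The log2 fold change was 0.49 (standard error 0.12, edgeR adjusted p = 0.0185), and it was 0.071 with library totals (adjusted p = 0.673), the only alternative in which the call was lost. Eif1ax, the X-linked gene for the same factor, was at 43.6, 41.1 and 37.4 CPM against 47.0, 51.1 and 46.1 CPM. These groups did not overlap either, but the difference of 0.24 did not pass the test (adjusted p = 0.135) and was −0.17 with library totals. The ratio of Eif1a to Eif1ax reads overlapped between the genotypes, at 1.35 to 1.41 in WT against 1.40 to 1.88 in Prox1-cKO.

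The other 5 genes of the group, none of them called, had log2 fold changes from −0.045 for Eif6, which keeps the large subunit from joining too early, to 0.30 for Eif2a, a factor of alternative initiation. Eif5b, the GTPase of subunit joining, was at 90.7 ± 3.3 CPM in WT and 89.8 ± 6.0 CPM in Prox1-cKO (SD, n = 3 each). Eif2a had no overlap between the groups in CPM, and the 1643 exonic bases that Eif5b shares with Rev1 on the opposite strand may hold reads of either gene, since the strand used in counting is not given.

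Because Eif1 and Eif5 had the largest rises, the bases upstream of their RefSeq start sites are shown (RefSeq promoters of GRCm38.p6), cut before the first base of the gene in GENCODE. They span chr11:100319699-100319884 (plus strand) for Eif1 and chr12:111537851-111538015 (plus strand) for Eif5. Capitals mark the GC box (GGGCGG, shown as its reverse complement) and the CCAAT box (searched as ATTGG and its reverse complement).
Eif1: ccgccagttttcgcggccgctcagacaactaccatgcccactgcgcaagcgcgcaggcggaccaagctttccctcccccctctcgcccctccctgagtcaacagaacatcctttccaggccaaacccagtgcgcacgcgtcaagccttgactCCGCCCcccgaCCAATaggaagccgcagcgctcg
Eif5: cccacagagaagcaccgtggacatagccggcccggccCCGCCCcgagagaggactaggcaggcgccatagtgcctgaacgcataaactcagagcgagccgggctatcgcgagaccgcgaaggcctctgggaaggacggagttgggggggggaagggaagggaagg

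A RefSeq promoter was found for 47 of the 60 genes, 8 of the 11 called ones included. Within 250 bases before the start, on either strand, all of these 8 had a GC box, which 35.4% of 27025 genes had. That share is over all genes with a RefSeq promoter, expressed in liver or not. Factors that were not called were not searched, so the GC box cannot be read as a mark of the called ones. A CCAAT box stood in the window of Eif1 alone among them (37.5% of genes) and an E-box (CACGTG) in that of Eef2k alone (6.9% of genes), and 0 of 8 had the cAMP response element TGACGTCA (1.8% of genes) or TATAAA (14.3% of genes). None of these motifs contains another, the matches describe letters only, and no binding was measured.

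**Figure D3:**
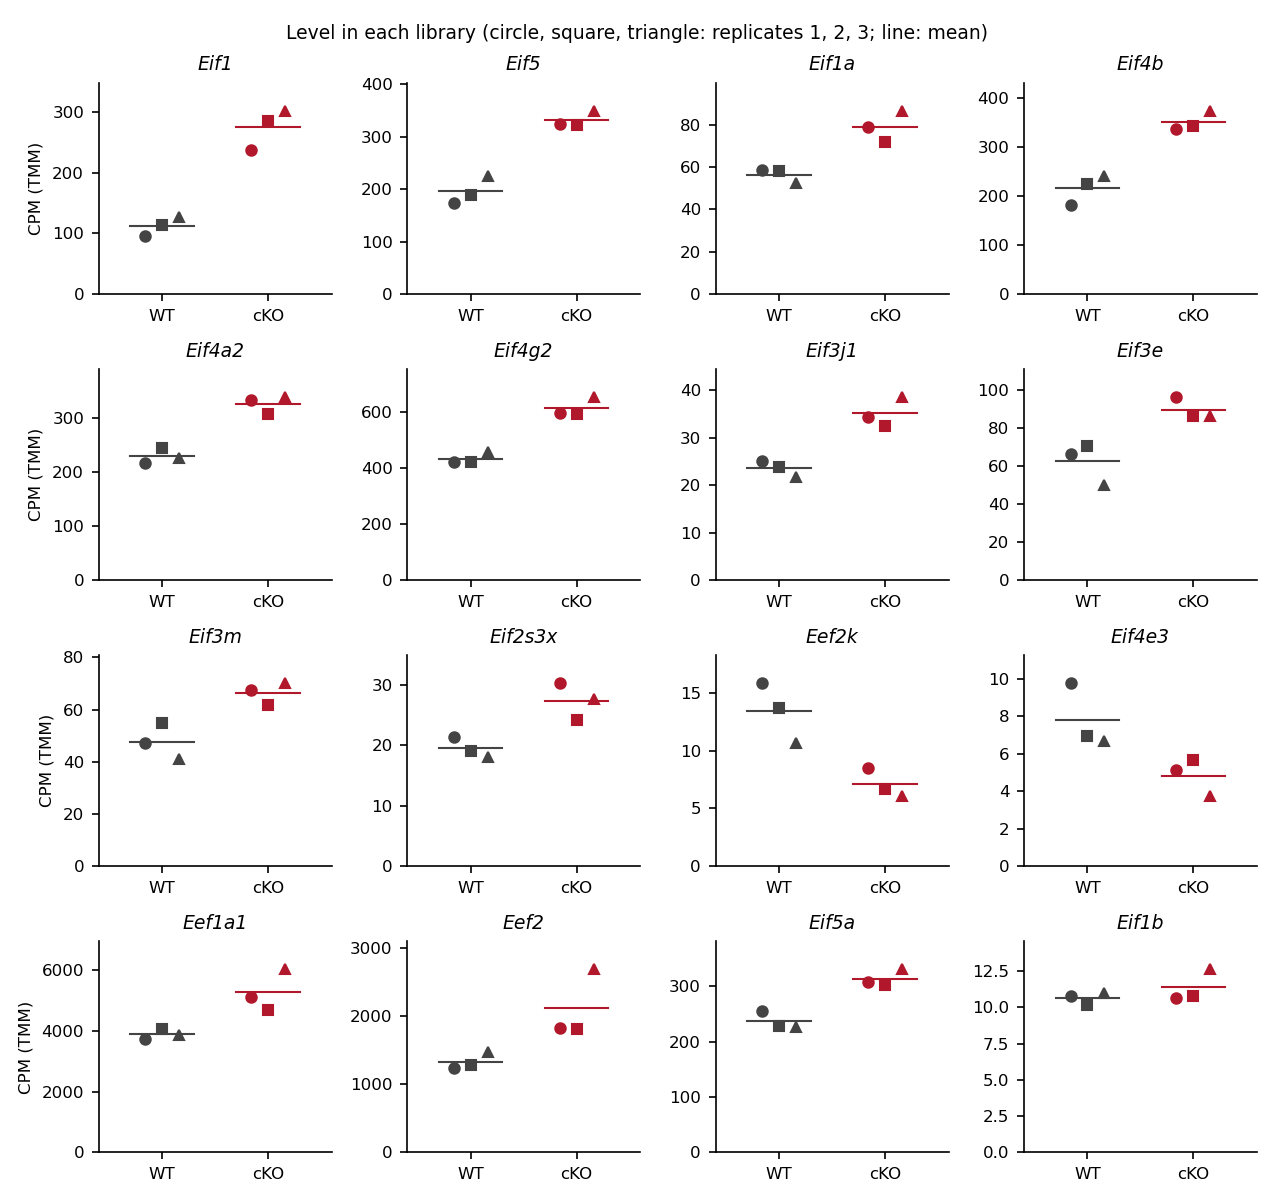
Each panel gives the CPM (TMM scaling, y axis from 0) of 1 gene in the 3 WT livers (grey) and the 3 Prox1-cKO livers (red), with a line at the mean of each group and symbols for the replicate. Eif1 goes from 95.9 to 127 CPM in WT to 238 to 303 CPM in Prox1-cKO, Eef2k lies lower in each Prox1-cKO liver, and in the Eef2 panel Prox1-cKO replicate 3 stands above the other libraries at 2698 CPM.

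The eIF4 group held 12 tested genes, of which 3 were called higher. The edgeR test called 0 of them lower (1 at an unadjusted p under 0.05, 1 by DESeq2 and 0 by limma-trend). Eif4b encodes the cofactor that stimulates the helicase eIF4A, Eif4a2 encodes a form of that helicase, and Eif4g2 encodes a scaffold related to eIF4G that lacks the part that binds the cap protein. Eif4e, which encodes the cap-binding protein itself, and Eif4g1, the main scaffold and the most abundant gene of the group per length, were not called.

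Eif4b (chr15:102073773-102097173, plus strand) was at 182, 224 and 242 CPM in WT and at 337, 343 and 375 CPM in Prox1-cKO. The whole Prox1-cKO group lay above the WT group, with a log2 fold change of 0.70 (standard error 0.16, edgeR adjusted p = 0.0124). Its call held in 13 of the 14 alternatives and was lost with library totals, at 0.30 (adjusted p = 0.136). No other gene shares its exons.

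Eif4a2 (chr16:23107444-23114136, plus strand) was at 216, 243 and 225 CPM in WT and at 332, 306 and 339 CPM in Prox1-cKO. The log2 fold change was 0.51 (standard error 0.14, edgeR adjusted p = 0.0231), and 8 of the 14 alternatives made the call. Its exons share 194 bases with Rfc4 on the opposite strand, which was called lower (−1.54, adjusted p = 0.00635), and hold several snoRNA genes. Eif4a1, the other cytoplasmic form of the helicase, overlapped between the groups, at 108, 97.6 and 78.7 CPM against 104, 92.8 and 105 CPM. A library held 2.0, 2.49 and 2.86 Eif4a2 reads per Eif4a1 read in WT and 3.21, 3.30 and 3.21 in Prox1-cKO, so the balance stood further to Eif4a2 in every Prox1-cKO liver. The Eif4a1 side of this ratio is less certain, because a processed pseudogene, Eif4a-ps4, drew 0.696 to 0.737 reads per Eif4a1 read in WT against 0.690 to 0.780 in Prox1-cKO, and reads may be split between these near-identical copies. Eif4a3, the helicase of the exon junction complex, was at 33.4 ± 3.0 CPM in WT and 32.8 ± 1.5 CPM in Prox1-cKO (SD, n = 3 each).

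Eif4g2 (chr7:111067750-111083030), whose exons share 150 bases with a snoRNA gene, was at 421, 421 and 458 CPM in WT and at 597, 595 and 656 CPM in Prox1-cKO. It had the narrowest relative spread of the called eIF4 genes in WT, a log2 fold change of 0.51 (standard error 0.15, edgeR adjusted p = 0.0322), and a call in 7 of the 14 alternatives. Eif4g1 was at 498, 439 and 596 CPM against 578, 616 and 658 CPM, overlapping groups with a difference of 0.27 (standard error 0.17, adjusted p = 0.259) that was −0.13 with library totals. Eif4g3, a further scaffold, was at 75.7, 64.6 and 91.3 CPM against 69.2, 71.3 and 89.4 CPM. Per Eif4g1 read, Eif4g3 reads were 0.147 to 0.153 in WT against 0.116 to 0.136 in Prox1-cKO, and Eif4g2 reads were 0.769 to 0.960 against 0.966 to 1.03, neither ratio overlapping.

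None of the 3 genes of cap-binding proteins was called. Eif4e was at 57.8, 49.8 and 48.2 CPM in WT and at 55.0, 53.3 and 60.2 CPM in Prox1-cKO, with a difference of 0.11 (standard error 0.12, edgeR adjusted p = 0.499) that was −0.30 with library totals. Eif4e2, which encodes a cap-binding relative known for repressing mRNAs, was at 44.7, 37.1 and 39.0 CPM against 48.7, 47.8 and 52.6 CPM, not overlapping but not called (0.30, adjusted p = 0.0798). Eif4e3, the least abundant form, was at 9.79, 6.94 and 6.66 CPM against 5.12, 5.68 and 3.73 CPM. All Eif4e3 values of Prox1-cKO lay below those of WT, the log2 fold change of −0.69 (standard error 0.24) missed the edgeR threshold with an adjusted p of 0.055, and 5 of the 14 alternatives called it lower. Within libraries, Eif4e2 reads per Eif4e read were 0.745 to 0.809 in WT against 0.875 to 0.896 in Prox1-cKO, whereas Eif4e3 reads per Eif4e read were 0.138 to 0.170 and 0.0620 to 0.107.

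**Figure D4:**
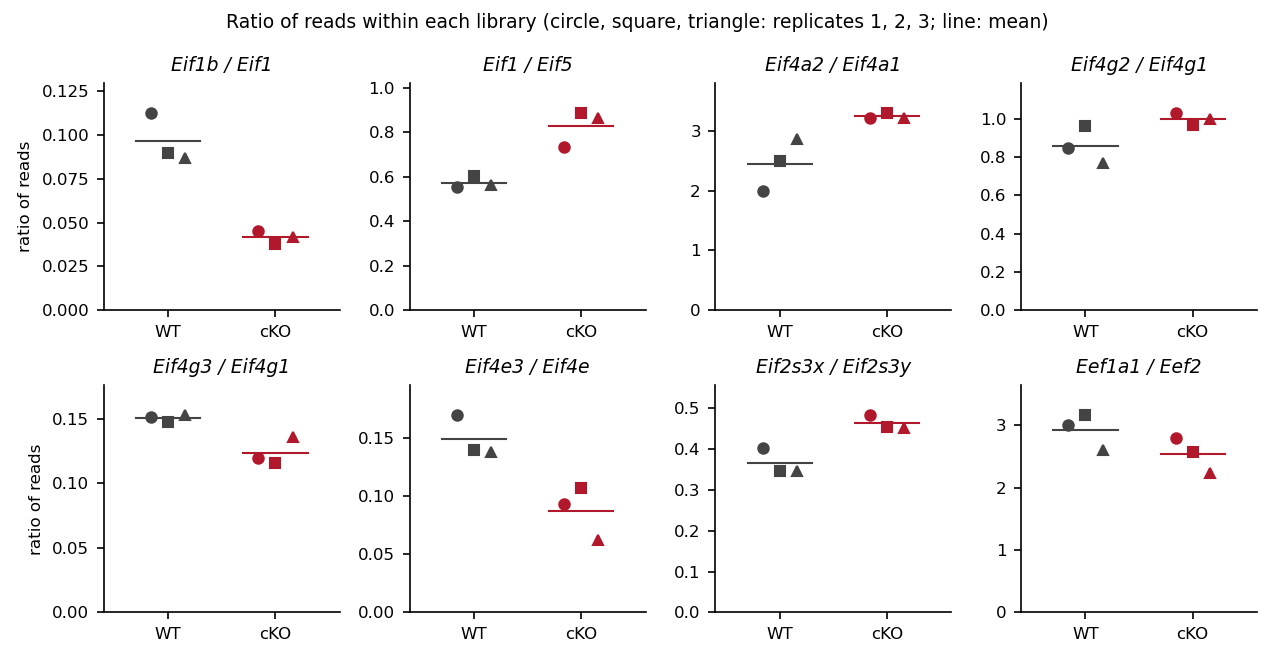
Each panel gives the ratio of the reads of 2 factors within each library (y axis from 0), which does not depend on scaling, for the 3 WT livers (grey) and the 3 Prox1-cKO livers (red), with the mean as a line. The groups do not overlap for Eif1b over Eif1, Eif1 over Eif5, Eif4a2 over Eif4a1, Eif4g2 and Eif4g3 over Eif4g1, Eif4e3 over Eif4e and Eif2s3x over Eif2s3y, and they overlap for Eef1a1 over Eef2. For Eif4g2 over Eif4g1 the gap is narrow, from 0.960 in WT to 0.966 in Prox1-cKO. Of the ratios not drawn, Eif5a2 over Eif5a, Eif1a over Eif1ax, Eif3j2 over Eif3j1 and Eif4a-ps4 over Eif4a1 overlap. Eif4e2 over Eif4e and Eef2k over Eef2 do not.

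The eIF3 complex, the largest initiation factor and the platform on which the other factors meet on the small subunit, had 14 genes tested, of which 3 were called higher. By edgeR 0 were called lower, and likewise 0 at an unadjusted p under 0.05, by DESeq2 and by limma-trend. With TMM scaling 13 of the 14 log2 fold changes were above 0 (median 0.28), and with library totals 3 were (median −0.12). Summed over the complex, the level was 1066, 1087 and 1043 CPM in WT and 1192, 1154 and 1399 CPM in Prox1-cKO.

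Eif3j1, which encodes a loosely bound subunit that acts at the mRNA entry channel and in ribosome recycling, was at 25.0, 24.0 and 21.8 CPM in WT and at 34.3, 32.5 and 38.7 CPM in Prox1-cKO. The groups were well apart, with a log2 fold change of 0.57 (standard error 0.12, edgeR adjusted p = 0.00932) and a call in 13 of the 14 alternatives, all but library totals (0.16, adjusted p = 0.352). At its locus (chr2:122028546-122056598, plus strand) 1107 exonic bases are shared with Spg11 on the opposite strand, and Spg11 had a log2 fold change of −0.18 (adjusted p = 0.346). Eif3j2, a second copy of this gene, had 1.24 to 3.51 CPM in WT against 1.95 to 3.0 CPM in Prox1-cKO, and it was called only without WT replicate 3, with a log2 fold change of 0.93.

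Eif3e (chr15:43250058-43282719) was at 66.5, 70.7 and 50.3 CPM in WT and at 96.4, 86.2 and 86.3 CPM in Prox1-cKO. Eif3m (chr2:104999656-105017080) was at 47.3, 54.7 and 40.9 CPM against 67.6, 61.6 and 70.3 CPM. In both genes WT replicate 3 was the lowest library, and no Prox1-cKO value reached down to the WT values. Their log2 fold changes were 0.52 (standard error 0.15, adjusted p = 0.0319) and 0.48 (standard error 0.14, adjusted p = 0.0291) by edgeR, and each was called in 9 of the 14 alternatives. Both proteins belong to the octamer of PCI and MPN subunits at the heart of mammalian eIF3, and Eif3m shares 82 exonic bases with Ccdc73 on the opposite strand.

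Eif3a, which encodes the largest subunit, had the lowest log2 fold change of the complex. It was at 217, 247 and 251 CPM in WT and at 229, 220 and 264 CPM in Prox1-cKO, with a log2 fold change of −0.0041 (standard error 0.15, edgeR adjusted p = 0.986). Of the reads of the whole complex, Eif3a took 20.3%, 22.8% and 24.1% in WT and 19.2%, 19.0% and 18.9% in Prox1-cKO, without overlap. The share of Eif3j1 was above WT in all Prox1-cKO livers (2.09% to 2.35% against 2.77% to 2.88%), as was that of Eif3f (6.18% to 6.32% against 6.33% to 6.58%), and the shares of the other 11 genes overlapped. Eif3h, the most abundant subunit per length, was at 101, 101 and 81.3 CPM against 111, 105 and 138 CPM, not overlapping and not called (0.32, adjusted p = 0.153), and −0.10 with library totals.

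Among the genes of eIF2, Eif2s3x was called higher and 0 of 4 were called lower by edgeR (0 at an unadjusted p under 0.05, by DESeq2 and by limma-trend). Eif2s3x and Eif2s3y are the X-linked and Y-linked genes of the gamma subunit, which binds GTP and the initiator tRNA. Eif2s3x (chrX:94188707-94212862) was at 21.3, 19.2 and 18.1 CPM in WT and at 30.4, 24.2 and 27.6 CPM in Prox1-cKO, with a log2 fold change of 0.49 (standard error 0.13, edgeR adjusted p = 0.0248) that was called in 10 of the 14 alternatives. Eif2s3y, the most abundant gene of the group per length, was at 53.1, 55.4 and 52.1 CPM against 62.8, 53.2 and 61.2 CPM, which overlap (0.14, adjusted p = 0.369, and −0.27 with library totals). The X-linked copy gave 0.402, 0.345 and 0.347 reads per Eif2s3y read in WT and 0.484, 0.455 and 0.451 in Prox1-cKO. Eif2s3y had 974 to 1317 reads in every library, so that all 6 livers carried a Y chromosome.

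Eif2s2, the beta subunit, was at 54.2 ± 6.3 CPM in WT and 65.6 ± 2.7 CPM in Prox1-cKO (SD, n = 3 each) and was not called (0.27, edgeR adjusted p = 0.123). Eif2s1, the alpha subunit whose phosphorylation shuts down general initiation, was at 44.7 ± 7.4 CPM and 42.6 ± 3.9 CPM (−0.073, adjusted p = 0.736). The gamma subunit was thus the only one of eIF2 called, in its X-linked copy.

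The exchange factor eIF2B, which recharges eIF2 with GTP, had 5 genes tested, and 0 were called in either direction by edgeR, at an unadjusted p under 0.05, by DESeq2 or by limma-trend. Their log2 fold changes ran from 0.013 for Eif2b3 to 0.32 for Eif2b4, all 5 above 0 with TMM and 0 of 5 above 0 with library totals. Eif2b5, the catalytic subunit and the most abundant of them per length, was at 34.4, 34.1 and 36.4 CPM in WT and at 36.8, 39.9 and 45.7 CPM in Prox1-cKO. Its groups did not overlap, but the difference of 0.22 (standard error 0.12) had an adjusted p of 0.184, and it was −0.19 with library totals.

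Elongation factors made up most of the reads of the 60 genes. Eef1a1 and Eef2 together took 52.7% to 54.7% of them in WT and 54.6% to 58.6% in Prox1-cKO. By edgeR 0 of the 6 tested eEF1 and eEF2 genes were called. At an unadjusted p under 0.05, 1 was higher, DESeq2 called 2 higher, and limma-trend called 0. All 3 counts of lower genes were 0.

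Eef2, the GTPase that moves the ribosome along the mRNA (chr10:81176631-81182498, plus strand), was at 1244, 1284 and 1475 CPM in WT and at 1829, 1821 and 2698 CPM in Prox1-cKO. The groups did not overlap, and Prox1-cKO replicate 3 was far above the other libraries. The log2 fold change of 0.67 (standard error 0.22) just missed the edgeR threshold with an adjusted p of 0.0506, 6 of the 14 alternatives called it higher, and it was 0.46 without Prox1-cKO replicate 3. Eef1a1, which delivers aminoacyl-tRNA to the ribosome, was the most abundant of all the factors per length, at 1559 CPM per kilobase of exon in WT and 2118 in Prox1-cKO. It was at 3743, 4070 and 3849 CPM in WT and at 5109, 4691 and 6036 CPM in Prox1-cKO, again without overlap, with a log2 fold change of 0.44 (standard error 0.21, edgeR adjusted p = 0.138) that only DESeq2 and the correction for length and GC content called. Eef1a1 reads per Eef2 read were 2.61 to 3.17 in WT against 2.24 to 2.79 in Prox1-cKO, and these overlapped.

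Eef1b2, Eef1d and Eef1g encode the exchange complex of eEF1A, and Eef1e1 encodes an auxiliary protein of the aminoacyl-tRNA synthetase complex. Eef1b2, Eef1g and Eef1e1 had log2 fold changes between −0.025 and 0.048, and Eef1d was at 63.1 ± 10.2 CPM in WT and 78.2 ± 12.5 CPM in Prox1-cKO (SD, n = 3 each), a difference of 0.31 (edgeR adjusted p = 0.192). None of these 4 genes was separated between the groups. Eef1a2 had 0.10 CPM or less in every library.

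Of the eIF5A genes, 0 of 2 were called by edgeR and by an unadjusted p under 0.05, DESeq2 and limma-trend 1 was higher in each case. Eif5a, which encodes the main carrier of the modified residue hypusine, was at 256, 228 and 227 CPM in WT and at 308, 302 and 332 CPM in Prox1-cKO. The Prox1-cKO values lay above the WT values by more than the spread of either group. The log2 fold change was 0.41 (standard error 0.14) with an edgeR adjusted p of 0.0534, and it was −0.0076 with library totals. Eif5a2 was near the detection limit, at 1.02 ± 0.21 CPM in WT and 0.628 ± 0.404 CPM in Prox1-cKO (SD, n = 3 each).

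Of the enzymes that modify the factors, 5 were tested. Among them, 0 were called higher by edgeR (0 at an unadjusted p under 0.05, by DESeq2 and by limma-trend) and Eef2k was called lower. Eef2k encodes the calmodulin-dependent kinase that phosphorylates eEF2 and slows elongation. It was at 15.9, 13.7 and 10.6 CPM in WT and at 8.49, 6.72 and 6.09 CPM in Prox1-cKO, so all Prox1-cKO livers had less than the lowest WT liver. The log2 fold change was −0.92 (standard error 0.21, edgeR adjusted p = 0.0118), a level 0.529 times that of WT. It was called in 13 of the 14 alternatives, and the exception was the fit without Prox1-cKO replicate 2 (adjusted p = 0.0519).

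Set against its substrate, there were 0.0128, 0.0107 and 0.00720 Eef2k reads per Eef2 read in WT and 0.00464, 0.00369 and 0.00226 in Prox1-cKO. The geometric mean of the ratio in Prox1-cKO was 0.340 times that of WT, and the groups did not overlap. The Eef2k gene (chr7:120842831-120907450, plus strand) shares 101 exonic bases with an antisense gene, Gm15774. Of the methyltransferases, Eef1akmt2 was lower in all Prox1-cKO livers, at 4.08 ± 0.14 CPM in WT and 3.32 ± 0.07 CPM in Prox1-cKO (SD, n = 3 each), without passing the test (−0.30, edgeR adjusted p = 0.241), and Eef1akmt4 and Eef2kmt overlapped between the groups. Eef1akmt1, the most abundant of these enzymes per length in WT, was at 6.53, 7.07 and 10.1 CPM in WT and at 5.43, 5.90 and 6.86 CPM in Prox1-cKO, which overlap (−0.38, edgeR adjusted p = 0.208).

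**Figure D5:**
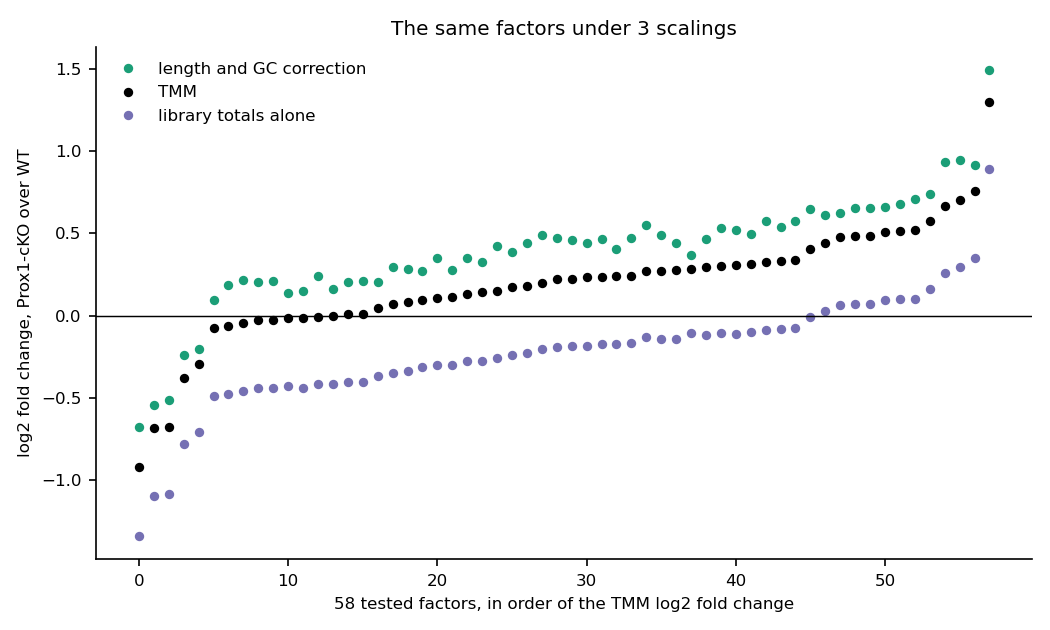
The points give the log2 fold change (y axis) of each of the 58 tested factors, ordered by its value with TMM scaling (x axis), for TMM (black), library totals alone (purple) and TMM with a correction for gene length and GC content (green). The order of the factors is much alike while the level of the whole set shifts, so that 44 are above 0 with TMM, 12 with library totals and 53 with the correction.

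Genes that control these factors were counted from lists of the same pathways. Of 17 genes of translation control, 5 were called higher and 2 lower, beside 14.1% and 20.2% of all genes. With library totals 2 were called higher and 4 lower, and with the correction for length and GC content 10 were called higher and 0 lower. Eif4ebp3, which encodes an inhibitor of eIF4E, was at 1.19, 1.47 and 1.37 CPM in WT and at 5.0, 2.68 and 3.73 CPM in Prox1-cKO (log2 fold change 1.49, edgeR adjusted p = 0.00707). Its relatives were not called, Eif4ebp1 at 42.3 ± 6.1 against 44.5 ± 5.3 CPM and Eif4ebp2 at 211 ± 38.6 against 262 ± 11.9 CPM (SD, n = 3 each). Mknk2, a kinase of eIF4E, was at 157, 106 and 124 CPM against 235, 292 and 317 CPM (1.12, adjusted p = 0.00413). Also higher were Ppp1r15b, the constitutive partner of the phosphatase that restores eIF2 (0.69, adjusted p = 0.00395), Rptor of mTORC1 (0.58, adjusted p = 0.0226) and the eIF2 kinase Eif2ak1 (0.47, adjusted p = 0.0247). Lower were Eif2ak3, the eIF2 kinase of the endoplasmic reticulum (−0.64, adjusted p = 0.0238), and Pdcd4, an inhibitor of eIF4A (−0.60, adjusted p = 0.0477). Neither was called lower with the correction for length and GC content, and limma-trend called only 1 gene of the list lower.

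Targets of the integrated stress response, which eIF2 phosphorylation sets off through Atf4, were called in both directions. Of 17 tested 6 were higher and 5 lower, beside 14.1% and 20.2% of all genes. With library totals 4 were higher and 5 lower, and with the correction for length and GC content 8 and 4. DESeq2 called 6 higher and 4 lower, and limma-trend 6 higher and 3 lower. Atf5 was at 41.5, 68.8 and 70.6 CPM in WT and at 201, 308 and 364 CPM in Prox1-cKO (2.27, edgeR adjusted p = 0.00124). Asns and Fgf21 were also called higher (2.72 and 2.98), both from few reads in WT. Asns was at 0.529, 1.56 and 0.508 CPM in WT and at 3.19, 3.60 and 10.6 CPM in Prox1-cKO. Fgf21 overlapped between the groups, at 0.617, 5.72 and 1.37 CPM against 4.44, 28.4 and 28.7 CPM. Nupr1 fell from 8.20 to 20.6 CPM to 0.928 to 1.77 CPM (−3.51, edgeR adjusted p = 8.62e-04), and Atf3 was lower as well (−2.24, adjusted p = 0.00545). Atf4 itself overlapped between the groups, at 68.5, 80.9 and 77.9 CPM against 74.3, 77.8 and 108 CPM. Psat1, Phgdh and Mthfd2, enzymes of serine and one-carbon metabolism, were called lower and Shmt2, of the same route, higher. Phgdh was near the detection limit, at 0.51 to 0.62 CPM in WT and 0.18 to 0.31 CPM in Prox1-cKO. For Psat1 the gap was narrow, from 0.9147 CPM in WT replicate 3 to 0.8745 CPM in Prox1-cKO replicate 1.

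Partners of the factors at the ends of the mRNA and after termination were tested in 4 lists, beside the same shares of all genes. Paip1, which links the poly(A)-binding protein to eIF4A and eIF3, was at 36.6, 39.3 and 36.7 CPM in WT and at 62.5, 74.2 and 80.4 CPM in Prox1-cKO (log2 fold change 0.95, edgeR adjusted p = 0.00165), and with Paip2b it made 2 of 5 genes of that list called higher. Of 9 genes of termination and recycling 2 were higher, Hbs1l, a rescue factor of stalled ribosomes (0.77, adjusted p = 0.00398), and Denr (0.46, adjusted p = 0.0454). Of 9 genes that make hypusine and diphthamide, the modified residues of eIF5A and eEF2, Dph1 was higher (0.74, adjusted p = 0.00506). Of 9 mitochondrial translation factors Gfm1 (0.65) and Mtif3 (0.57) were higher. In these 4 lists 0 genes were called lower by edgeR, by DESeq2, by limma-trend or at an unadjusted p under 0.05, but with library totals 1 gene of the poly(A) list was called higher and 0 in the others, and 1 gene of the hypusine and diphthamide list and 2 of the mitochondrial list were called lower. With the correction for length and GC content 3, 4, 2 and 5 genes of these lists, in the order above, were called higher and 0 lower.

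The protein parts of the ribosome were counted in the same way. Of 74 tested genes of cytosolic ribosomal proteins 0 were called by edgeR, where 34.3% of all genes were called. At an unadjusted p under 0.05, 2 were higher and 3 lower, DESeq2 called 1 lower and limma-trend 1 higher. The median log2 fold change was 0.093, beside 0.22 for the tested factors, and summed CPM was 5772 to 7476 in WT against 6523 to 8453 in Prox1-cKO. These 2 medians were −0.33 and −0.19 with library totals, and 0.31 and 0.44 with the correction for length and GC content. With library totals 14 were called lower, and with the correction for length and GC content 11 were called higher. Of 14 mRNAs with a 5′ terminal oligopyrimidine tract other than ribosomal proteins, 9 of them factors described above, 3 were called higher (Eif4b, Eif3e and Nap1l1), against 0 with library totals and 9 with the correction. Of 20 cytosolic aminoacyl-tRNA synthetases Dars was higher and Wars and Gars were lower, and of 20 ribosome biogenesis genes Polr1a was higher and Gar1 lower, the medians of both lists being −0.0057 and 0.017. With library totals 0 synthetases were called higher and 11 lower, and 0 and 7 biogenesis genes (medians −0.42 and −0.40), while with the correction for length and GC content 8 and 5 were called higher and 0 lower.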

How the data were processed

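The study sequenced liver mRNA of 3 WT and 3 Prox1-cKO mice, and the deposited table holds whole read counts per gene made by the authors. Tools named in the submitters' notes, without their roles, are DESeq, HTSeq and HISAT2 2.1.0, and the build named is GRCh38, which is human, while the gene identifiers are of the mouse. No source used here gives the strand of counting or the annotation. A second table, named FPKM, was not used. Names ending in -ps with a number were read as pseudogenes (5 genes left out). The members and the gene lists were chosen with earlier results of these data known. The genes given with values in every library are, in each role, the most abundant per length and the called ones with the largest rise and fall, and paralog pairs. Other called members, Eef2, Eif3a and the control genes were chosen after their values were seen. The ratios of Eif1 to Eif5, Eef1a1 to Eef2 and Eef2k to Eef2 are not of paralog pairs and were added to the planned ones.

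The test was run with edgeR 4.0.16 in R 4.3.3 (filterByExpr by genotype, TMM, quasi-likelihood test, genotype as the only term). Per-length levels, overlaps, start codons and GC content came from GENCODE M21 (GRCm38), which holds 29641 of the 29667 identifiers. Of the listed genes, 1 was not found and 1 was matched under an older symbol. The 14 alternative fits were RLE scaling, library totals, no filter beyond 1 read, a minimum of 10 reads in each library, a replicate block, DESeq2 1.42.0, limma-trend (limma 3.58.1) on log2(CPM + 1), a correction in each library for the length and GC content of genes, and each library left out in turn. An exact permutation test of 3 against 3 cannot go below p = 0.1, while edgeR shares the spread across genes. matplotlib 3.10.9 under Python 3.11.15 drew the figures.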

Additional observations from a re-analysis of the deposited data

How the results depend on the processing

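With library totals alone 1 factor was called higher (Eif1) and 8 lower, and their median log2 fold change was −0.19, while 725 genes in all were called higher and 6060 lower, against 2087 and 2999 with TMM, and 7 related genes higher and 45 lower, against 21 and 10. Signs turned with library totals for 32 of the 58 tested factors, among them Eif2s3y (−0.27), Eif4a1 (−0.33), Eif3j2 (−0.10), Eif4e2 (−0.11), Eif4g1 (−0.13), Eif1ax (−0.17), Eif2b5 (−0.19), Eif5a (−0.0076), Eif4e (−0.30), Eif3h (−0.10) and Eif1b (−0.31). With the correction for length and GC content 34 factors were called higher and 1 lower, with a median of 0.44, and 4079 genes in all and 58 related genes were called higher, 4 related genes lower. Eif4g3, at −0.011 with TMM, was 0.0036 with RLE and with DESeq2, 0.0053 with no filter and 0.24 with the correction. At a fold of at least 2, 1 factor was higher and 0 lower, as were 735 genes higher in all and 6 related genes higher and 5 lower, and at an unadjusted p under 0.05, 2 factors were lower and 32 related genes higher. A filter of at least 10 reads in every library, DESeq2 and the replicate block each called 2 factors lower. Leaving out the modifying enzymes left 0 factors lower, and leaving out the factors whose exons overlap another gene left 5 of 34 higher and 0 lower. The cause of these differences was not tested. When each library was left out in turn, factors called higher ranged from 5 to 12 and lower from 0 to 2, all genes called higher from 1201 to 2604 and lower from 1999 to 3468, related genes called higher from 13 to 27 and lower from 4 to 14, Eif4a1 from −0.015 to 0.19 and Eif4g3 from −0.13 to 0.15. The lowest count of factors called higher came without Prox1-cKO replicate 1 and without Prox1-cKO replicate 3 and the highest without WT replicate 3, and Eef2k was lost without Prox1-cKO replicate 2. Prox1 stayed called lower in all 14 alternative fits.

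The replicate numbers are not known to pair the mice. Deviations of same-numbered libraries correlated at 0.148, 0.056 and 0.155. WT replicate 2 correlated slightly better with Prox1-cKO replicate 1 (0.059), while all other pairs of unlike number were negative, from −0.158 to −0.006. With the replicate block 11 factors were called higher and 2 lower. Depth limits the statements on Eif3j2, Eif5a2 and Eef1akmt4, which had few reads in every library, and Eef1a2 and Eef1akmt3 could not be tested.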
